A study of Mus musculus with 3 samples.

Results

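Transcripts of 10 myosin heavy chain genes (Myh1, Myh2, Myh3, Myh4, Myh6, Myh7, Myh8, Myh9, Myh10 and Myh11) were measured in 3 lines of gene-edited myoblasts. The genes were taken by name, out of 35613 genes in all, and were grouped as developmental (Myh3, Myh8), adult fast (Myh1, Myh2, Myh4), slow (Myh7) and nonmuscle (Myh9, Myh10) chains, with Myh6 (cardiac alpha chain) and Myh11 (smooth muscle chain) beside them. Myoblasts are the dividing progeny of satellite cells, the muscle stem cells that lie along the fibers, and the lines 66, 67 and 72 formed 1 group of n = 3. All carry the genotype Dmdmdx; Pax7-nGFP, in which the dystrophin gene holds the mdx mutation and a nuclear green fluorescent protein reports Pax7, and in all of them the mutation was corrected by CRISPR/Cas9. They were grown from satellite cells that had been taken from mouse-mouse chimeras, and according to the study the myoblasts were purified by FACS before sequencing. In the study edited iPSCs, reprogrammed from male embryonic fibroblasts, were injected into several kinds of host blastocyst, among them one with the alleles Pax7 Cre/ERT2 and Rosa26 lsl-DTA, in which tamoxifen starts diphtheria toxin in host cells that use Pax7. The age, host and tamoxifen treatment of the chimera behind each line are not in the labels, nor is it stated whether the lines came from separate animals, so the spread between lines may be partly technical. With no second condition among the samples used here, the comparisons were between the chains within a line and between the lines.

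Class II myosins are motors that pull on actin. A molecule holds a pair of heavy chains, each with a motor head that splits ATP and a tail that winds into a coiled coil, and the tails pack into the thick filaments of the sarcomere or into the short filaments of nonmuscle cells. In skeletal muscle the sarcomeric chains follow development and fiber type: the embryonic chain Myh3 and the perinatal chain Myh8 come with newly formed fibers, the slow chain Myh7 marks slow fibers, and Myh2, Myh1 and Myh4 mark the fast IIA, IIX and IIB fibers. Myh9 and Myh10 encode the heavy chains of nonmuscle myosins IIA and IIB, which drive cell division, adhesion and migration in most cell types.

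Levels are given as TPM, transcripts in each 1000000, which are corrected for transcript length and can therefore be set beside each other between genes. The libraries summed to 73274315 estimated counts in line 66, 66972426 in line 67 and 70272367 in line 72. Where a gene had 0 counts, up to 3 are allowed, a limit that covers counting error only.

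Before the levels, the sequences show why some chains are harder to tell apart than others. The genes Myh3, Myh2, Myh1, Myh4 and Myh8 lie side by side on the plus strand of chromosome 11 (GRCm38), from the start of Myh3 at chr11:67078300-67102291 to the end of Myh8 at chr11:67277124-67308634, and Myh13, the extraocular chain, follows at chr11:67321658-67371586. Over the coding sequence the adult fast chains were between 88.2% and 90.9% identical to each other, and the 5 cluster chains between 80.1% and 90.9%. The 7 sarcomeric chains were 52.7% to 55.7% identical to Myh9 and Myh10. Of 5808 aligned coding columns without a gap, 72.2% were alike in all 5 cluster chains, and the longest run of bases alike was 58. Below, the most alike window of 60 coding bases is shown for Myh3 and Myh1, since the Myh8, Myh2 and Myh4 rows were the same as that of Myh1. Of its columns 59 were alike, and the capital marks the base that was not. The window spans coding bases 3613 to 3672 of Myh3 and 3631 to 3690 of Myh1, in the part that encodes the tail.
Myh3, most alike: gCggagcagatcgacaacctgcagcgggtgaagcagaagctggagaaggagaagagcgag
Myh1, most alike: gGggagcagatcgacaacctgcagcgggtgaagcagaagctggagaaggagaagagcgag

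The least alike window of the same length is shown for all 5 chains, with capitals at columns not alike in all of them, because reads from such stretches separate the chains. Only 20 of its 60 columns were alike. It spans coding bases 1831 to 1890 of Myh3 and 1837 to 1896 of the other four, in the part that encodes the motor head.
Myh3, least alike: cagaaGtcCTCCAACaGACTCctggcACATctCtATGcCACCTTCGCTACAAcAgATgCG
Myh8, least alike: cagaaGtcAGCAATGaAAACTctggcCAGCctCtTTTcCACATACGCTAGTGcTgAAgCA
Myh1, least alike: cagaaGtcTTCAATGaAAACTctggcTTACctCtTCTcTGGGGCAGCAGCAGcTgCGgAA
Myh2, least alike: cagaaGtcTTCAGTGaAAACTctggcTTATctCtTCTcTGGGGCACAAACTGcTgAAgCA
Myh4, least alike: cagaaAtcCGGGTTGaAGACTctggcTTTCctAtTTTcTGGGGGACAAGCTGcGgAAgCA

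To put a number on this, each gene's listed transcripts were cut into words of 31 bases and the words that occur in no other listed gene were counted. Myh1 had the fewest words of its own, 57.1%, since it shared 26.8% of them with Myh2, 18.3% with Myh4 and 16.7% with Myh8. The other adult fast chains, Myh2 and Myh4, had 65.5% and 69.6% of their own words, and the cardiac pair Myh6 and Myh7 had 70.8% and 72.1%. Myh8 and Myh3 stood at 81.4% and 89.4%, and Myh9, Myh10 and Myh11 at 98.7%, 99.0% and 99.1%. The split of reads is therefore least certain within the adult fast group and between Myh6 and Myh7, and most certain for the nonmuscle chains.

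**Figure D1:**
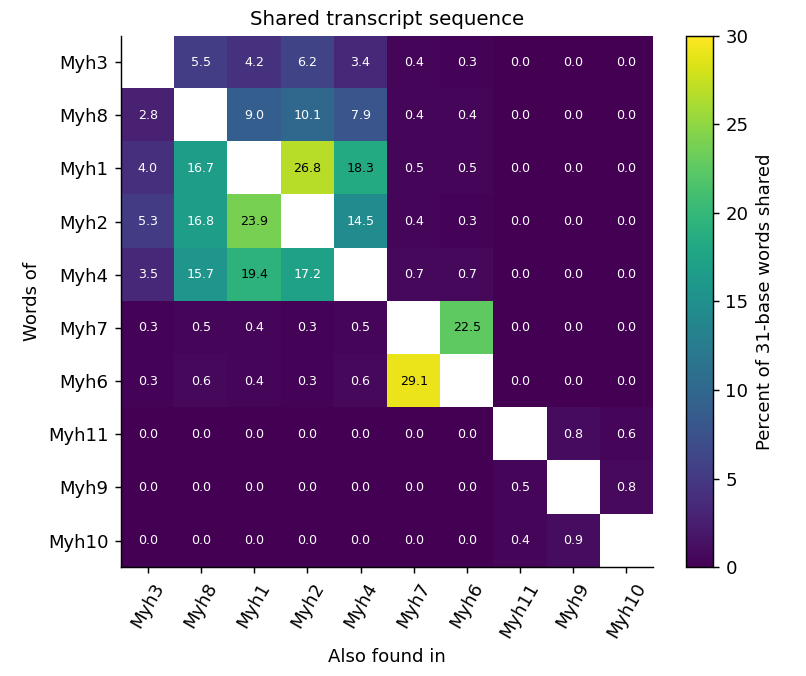
Percent of the 31-base words of the gene in each row that also occur in the gene of each column, for the 10 heavy chain genes. The adult fast chains and Myh8 form a block of shared words with 26.8% of Myh1 words found in Myh2, Myh6 and Myh7 form a pair with 29.1% of Myh6 words found in Myh7, and the nonmuscle and smooth muscle chains share under 1% with any other chain.

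The developmental chains were dominated by Myh3. Its level was 204, 262 and 339 TPM in lines 66, 67 and 72, or 268 ± 68.0 TPM (SD, n = 3), which placed it above 97.9% of the 25520 detected genes. Line 66 was lowest and line 72 highest. Myh8, the perinatal chain, stood at 8.34, 18.8 and 27.2 TPM in the same lines (18.1 ± 9.45 TPM, SD, n = 3). Myh3 was 24.4, 13.9 and 12.5 times as high as Myh8 in lines 66, 67 and 72, and made up 94.0% ± 1.84 (SD, n = 3) of the summed developmental level. The Myh3 reads were spread over 3 listed transcripts of nearly full length, of which Myh3-202 took the largest share in every line, at 50.3%, 39.0% and 42.6% of the gene's TPM. Myh8 had 1 full-length transcript, Myh8-201, with 97.6% to 98.5% of its TPM.

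Among the adult fast chains, the IIX chain Myh1 was the one with a sizeable level. It stood at 31.8, 57.0 and 57.6 TPM in lines 66, 67 and 72 (48.8 ± 14.7 TPM, SD, n = 3), so that lines 67 and 72 were close together and line 66 was below both. The IIB chain Myh4 had 0.673, 1.32 and 1.39 TPM, and the IIA chain Myh2 had 0.0587, 0.139 and 0.124 TPM from 14.6, 31.5 and 28.6 estimated counts. Myh1 was 47.3, 43.2 and 41.6 times as high as Myh4 and 542, 409 and 463 times as high as Myh2 in the 3 lines, and took 97.6% ± 0.165 (SD, n = 3) of the adult fast level. Myh2 and Myh1 are neighbours on the chromosome, at chr11:67171027-67197517 and chr11:67200052-67224575, and share much sequence, so part of the few Myh2 counts could belong to another chain, which was not tested. Myh4 lies at chr11:67238029-67260446.

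Along the cluster the level went up and down from gene to gene. Myh2 starts 92.7 kb from the start of Myh3 and was low, Myh1 starts at 121.8 kb and was well detected, Myh4 at 159.7 kb was low again, Myh8 at 198.8 kb was at an intermediate level, and Myh13 at 243.4 kb had 1.04, 4.11 and 4.25 estimated counts, near the limit of 3. Noncoding genes on the opposite strand between them were low, with 9430073C21Rik at 0.53 ± 0.264 TPM and Myhas at 0.513 ± 0.285 TPM (SD, n = 3). The kit kept the strand of the RNA, but whether the counting used it is not given in the sources used here, so reads of these genes and of the overlapping chain genes may not be fully separated.

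**Figure D2:**
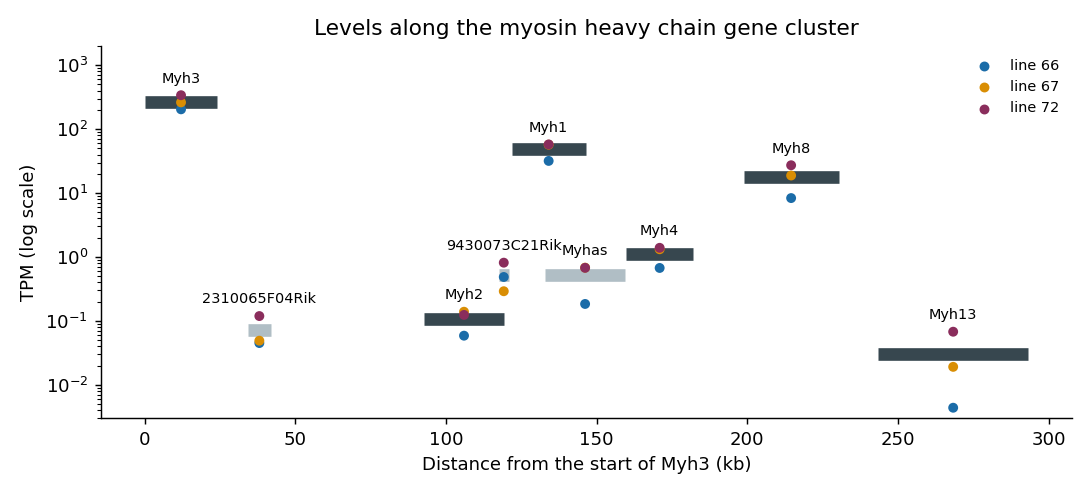
TPM on a log axis against distance in kb from the start of Myh3, with bars for the extent of each gene at its mean level over 3 lines (dark for heavy chains on the plus strand, light for noncoding genes on the minus strand) and points for the 3 lines. Myh3 at 268 TPM, Myh1 at 48.8 TPM and Myh8 at 18.1 TPM stand above Myh2, Myh4 and Myh13, which lie between and beyond them, and line 66 is the lowest point of each of these 6 chains.

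The sequences before the starts of the cluster genes were read from RefSeq (GRCm38.p6) to show what lies upstream of a high, an intermediate, a low and a very low chain. Of the 10 genes 9 matched an entry. The motifs searched, on both strands, were CANNTG (the E-box bound by myogenic bHLH factors), TATAAA and the MEF2 motif, and capitals mark the matches. The windows are the 250 bases before the RefSeq start, on the plus strand: chr11:67078050-67078299 for Myh3, chr11:67276874-67277123 for Myh8, chr11:67237562-67237811 for Myh4 and chr11:67170777-67171026 for Myh2.
Myh3, upstream: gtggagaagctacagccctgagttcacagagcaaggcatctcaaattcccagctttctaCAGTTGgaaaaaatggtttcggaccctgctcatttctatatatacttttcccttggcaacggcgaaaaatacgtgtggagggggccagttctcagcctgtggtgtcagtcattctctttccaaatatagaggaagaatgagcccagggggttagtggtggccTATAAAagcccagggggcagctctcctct
Myh8, upstream: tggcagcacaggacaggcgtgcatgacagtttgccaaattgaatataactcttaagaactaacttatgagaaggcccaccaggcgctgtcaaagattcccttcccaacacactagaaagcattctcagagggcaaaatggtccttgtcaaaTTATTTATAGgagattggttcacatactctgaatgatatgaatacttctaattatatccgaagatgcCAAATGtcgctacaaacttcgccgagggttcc
Myh4, upstream: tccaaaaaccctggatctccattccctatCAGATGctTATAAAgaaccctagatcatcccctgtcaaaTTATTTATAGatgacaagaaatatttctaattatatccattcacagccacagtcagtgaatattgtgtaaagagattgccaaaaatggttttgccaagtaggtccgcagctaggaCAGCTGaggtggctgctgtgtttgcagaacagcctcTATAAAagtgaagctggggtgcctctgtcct
Myh2, upstream: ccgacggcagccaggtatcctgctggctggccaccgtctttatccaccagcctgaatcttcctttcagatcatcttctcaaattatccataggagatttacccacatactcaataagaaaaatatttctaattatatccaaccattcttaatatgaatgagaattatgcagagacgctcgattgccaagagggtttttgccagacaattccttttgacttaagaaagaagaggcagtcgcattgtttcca

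A MEF2 match stood in the windows of Myh1, Myh4 and Myh8, and 1.73% of 27025 RefSeq promoter windows of this length hold one. The same 10 letters matched in each of these 3 genes, and they contain TATAAA on the other strand, which was the only TATAAA of Myh8. Myh3, the highest of the cluster, held 1 TATAAA near its start, 1 CANNTG and no MEF2 match, and Myh2 held none of the motifs. TATAAA is found in 13.0% and CANNTG in 66.0% of all windows. Windows with a MEF2 match thus belonged to chains as far apart as Myh1 at 48.8 TPM and Myh4 at 1.13 TPM, and a match is a description of letters, not of binding.

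The slow chain Myh7, also the beta chain of the heart, lies on the minus strand of chromosome 14 at chr14:54970684-54994626, next to Myh6 at chr14:54941921-54966927. Myh7 stood at 7.06, 15.5 and 19.9 TPM in lines 66, 67 and 72 (14.1 ± 6.51 TPM, SD, n = 3), with line 66 lowest. Its full-length transcript Myh7-201 held 96.3%, 94.1% and 95.3% of the gene's estimated counts but only 63.5%, 53.7% and 56.8% of its TPM, because Myh7-206, a retained intron of 595 bases, gave 1.93, 6.80 and 7.29 TPM from 30.3, 97.0 and 105 counts. Counting only transcripts of at least 5000 bases, Myh7 stood at 8.03 ± 3.41 TPM (SD, n = 3), with line 66 still lowest and line 72 highest.

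Myh6, the alpha chain of the atrium and the adult mouse ventricle, was barely detected, with 8.00, 21.3 and 22.8 estimated counts in lines 66, 67 and 72. Its TPM of 0.031, 0.593 and 0.105 put line 67 highest, but there only 9.93% of the TPM came from a full-length transcript and the rest from 4 listed transcripts of 376 to 718 bases with between 1.01 and 3 counts each. On full-length transcripts alone Myh6 had 0.031, 0.0589 and 0.0944 TPM. The 22.5% of Myh7 words that also occur in Myh6 mean that the few Myh6 counts could be Myh7 reads, which was not tested. Of the 11 cardiac markers, 7 were below 1 TPM in every line. Nkx2-5, Nppa and Myl7 were among them at 0 counts in all lines, so that up to 3 are allowed for each. Actc1 and Tnnt2, which developing skeletal muscle also uses, had 422 ± 147 and 292 ± 49.7 TPM (SD, n = 3). Gata4 had 22.1, 14.7 and 8.44 TPM, and Tnni3, the cardiac troponin I, had 3.58, 2.42 and 1.71 TPM in lines 66, 67 and 72.

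Introns of Myh6, Myh7 and Myh7b hold miRNA genes, printed here from RefSeq with the seed (bases 2 to 8) in capitals because the host genes are among the chains measured. The seed of miR-208a-3p, at chr14:54949072-54949093 in Myh6, is the same as that of miR-208b-3p, at chr14:54975710-54975731 in Myh7, and that of miR-499-5p, at chr2:155622893-155622913 in Myh7b, differs from it. Mature miRNAs are not captured by poly-A libraries and have no value here. Of the hosts, Myh7 was the highest, Myh7b had 2.05, 3.76 and 2.73 TPM, and Myh6 was barely detected.
miR-208a-3p: aUAAGACGagcaaaaagcuugu
miR-208b-3p: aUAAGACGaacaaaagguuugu
miR-499-5p: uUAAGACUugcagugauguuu

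The nonmuscle chains were the largest class in each line. Myh9, at chr15:77760587-77842175 on the minus strand, stood at 481, 425 and 472 TPM in lines 66, 67 and 72 (459 ± 29.9 TPM, SD, n = 3), above 98.8% of detected genes, and it was the highest of the 10 chains in every line. Myh10, at chr11:68691559-68816632 beyond the cluster, stood at 64.5, 50.4 and 62.8 TPM (59.3 ± 7.68 TPM, SD, n = 3). Myh9 was 7.45, 8.43 and 7.52 times as high as Myh10. In both genes line 67 was lowest and line 66 highest, the reverse of the place that line 66 had among sarcomeric chains. The third nonmuscle chain, Myh14, was low, at 0.631, 0.282 and 0.547 TPM.

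The TPM of Myh9 depended on a short transcript. The full-length Myh9-201 held 97.8% to 98.0% of the estimated counts in the 3 lines but 69.8% to 72.9% of the TPM, and Myh9-209, of 633 bases, gave 117, 95.6 and 121 TPM from 1896, 1394 and 1760 counts. With full-length transcripts alone Myh9 stood at 329 ± 19.0 TPM (SD, n = 3), and was above Myh3 in 2 of 3 lines where it was above it in 3 of 3 with all transcripts. For Myh3 and Myh10 the choice changed the mean little, to 268 and 58.1 TPM.

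Myh10 has a pair of short exons that are joined into its message mainly in neurons, and both are in the listed transcript Myh10-201 but not in Myh10-203. They are printed in capitals, with 15 bases of the neighbouring exons on each side, to show what sets the forms apart: exon 6 of 30 bases at chr11:68745935-68745964 and exon 17 of 63 bases at chr11:68775365-68775427, both on the plus strand.
Myh10-201, exon 6: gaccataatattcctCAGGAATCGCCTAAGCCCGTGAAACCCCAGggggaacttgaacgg
Myh10-201, exon 17: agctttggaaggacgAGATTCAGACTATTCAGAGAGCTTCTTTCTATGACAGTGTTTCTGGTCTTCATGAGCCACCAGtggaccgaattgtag

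Myh10-203, without these exons, held 98.4%, 96.4% and 99.8% of the Myh10 counts in lines 66, 67 and 72. Myh10-201 was given 342 and 524 counts in lines 66 and 67 and 0.0664 in line 72, so the lines did not share a common level. The transcripts also differ in their first exon and at the 3′ end, so these counts are not a measure of the exons alone, and the split between transcripts of 1 gene is an estimate.

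The smooth muscle chain Myh11, at chr16:14194535-14291372, was the lowest of the 10 by mean level, with 10, 7 and 13 estimated counts and 0.0403 ± 0.0134 TPM (SD, n = 3). In line 66 Myh6 was lower, at 0.031 TPM against 0.0371 TPM for Myh11. Of the 11 markers of smooth muscle and pericytes, 4 were below 1 TPM in every line, Cnn1 among them at 3 to 15 counts, and 5 had a mean of 10 TPM or more. Acta2, which young skeletal muscle cells also use, had 209, 292 and 581 TPM, lowest in line 66 and highest in line 72, and Rgs5 had 356, 137 and 172 TPM. Tagln, Smtn and Synpo2 had means of 71.1, 43.8 and 13.1 TPM. The list summed to 683, 537 and 926 TPM in lines 66, 67 and 72, and its part in the levels of the heavy chains was not tested. According to the study the myoblasts were purified by FACS, and how far the sort left out such cells was not tested.

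**Figure D3:**
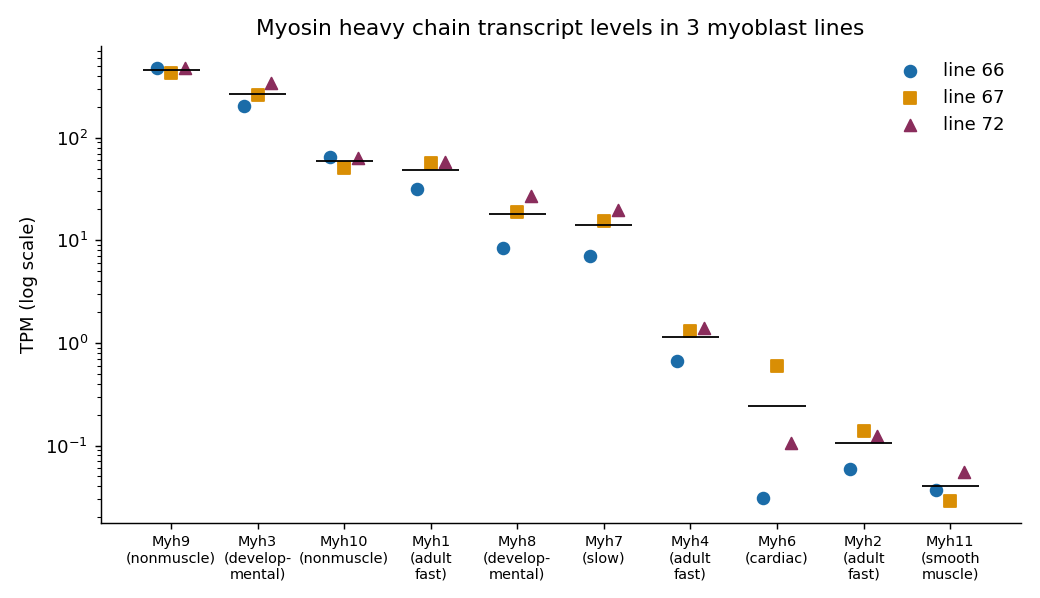
TPM on a log axis for each of the 10 heavy chain genes, ordered by mean level, with a point for each of the 3 lines and a bar at the mean. Levels run from Myh9 at 459 TPM to Myh11 at 0.0403 TPM, and line 66 is the lowest point of all 7 sarcomeric chains but not of Myh9, Myh10 and Myh11.

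In order of mean level the chains were Myh9, Myh3, Myh10, Myh1, Myh8, Myh7, Myh4, Myh6, Myh2 and Myh11. The order of Myh9 over Myh3, Myh3 over Myh10, Myh1 over Myh8, Myh8 over Myh7 and Myh7 over Myh4 held in 3 of 3 lines. Myh10 and Myh1 were not separated: Myh10 was 2.03, 0.885 and 1.09 times as high as Myh1, which is a mean log2 ratio of 0.32 ± 0.61 (SD, n = 3; exact sign-flip permutation test, two-sided, p = 0.75). The ratio of Myh8 to Myh7 was small, at 1.18, 1.22 and 1.37, and grew with full-length transcripts alone, from a mean log2 ratio of 0.30 to 0.99. Myh6 and Myh2 changed places between lines, and with full-length transcripts alone Myh2 was higher in each of them.

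Set side by side as classes, the nonmuscle chains were highest, the developmental chains followed, and the adult fast and slow chains were lower. Nonmuscle chains summed to 545, 476 and 535 TPM in lines 66, 67 and 72 (519 ± 37.6 TPM, SD, n = 3), and developmental chains to 212, 281 and 367 TPM (286 ± 77.4 TPM). Adult fast chains summed to 32.6, 58.4 and 59.1 TPM (50.0 ± 15.1 TPM), and slow Myh7 gave 14.1 TPM, as above. With all transcripts the ranges of the 4 classes over the lines did not overlap, whereas with full-length transcripts alone those of the nonmuscle and developmental chains did, line 67 of the first lying below line 72 of the other.

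The 6 differences between classes all had the same sign in 3 of 3 lines. On the log2 scale, with 1 TPM added, nonmuscle chains were above developmental chains by 0.89 ± 0.42 (SD, n = 3), above adult fast chains by 3.39 ± 0.55 and above the slow chain by 5.21 ± 0.76. Developmental chains were above adult fast chains by 2.51 ± 0.23 and above the slow chain by 4.32 ± 0.35, and adult fast chains were above the slow chain by 1.81 ± 0.27. The exact sign-flip permutation test (two-sided, Benjamini-Hochberg adjustment over 6 pairs) gave an adjusted p = 0.25 for each, which is the smallest that 3 lines allow, so none could reach a threshold of 0.05.

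**Figure D4:**
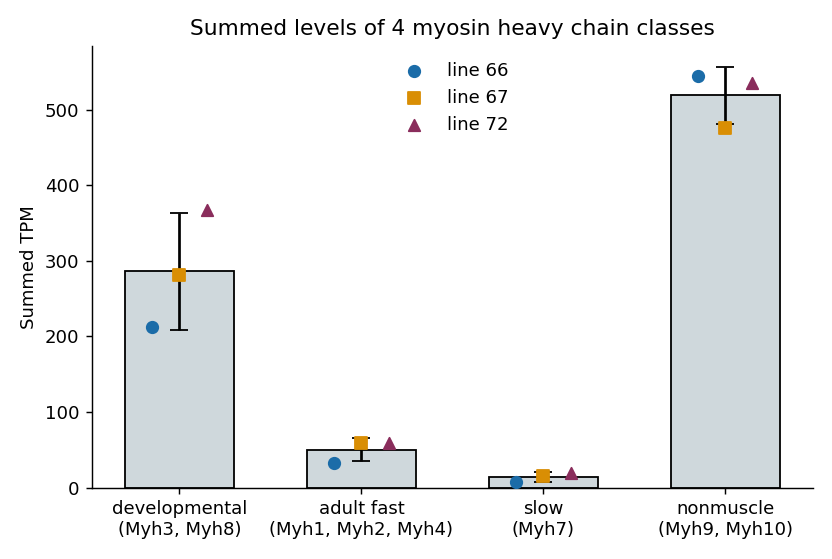
Summed TPM of the developmental, adult fast, slow and nonmuscle chains, with bars at the mean over 3 lines, error bars of 1 SD and a point for each line. Nonmuscle chains (519 TPM) stand above developmental chains (286 TPM) in each line, and line 66 holds the lowest point of the 3 sarcomeric classes and the highest of the nonmuscle class.

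As shares, sarcomeric chains made up 31.6%, 42.8% and 45.4% of the summed level of the 10 chains in lines 66, 67 and 72, and nonmuscle chains most of the rest (60.1% ± 7.34, SD, n = 3). Within the sarcomeric chains, Myh3 took 76.9% ± 3.68, Myh1 13.9% ± 1.89, Myh8 4.91% ± 1.44, Myh7 3.87% ± 0.93 and Myh4 0.317% ± 0.0526 (SD, n = 3). The share of Myh3 was between 73.7% and 80.9% in the 3 lines, and that of Myh8 was 3.31%, 5.31% and 6.10% in lines 66, 67 and 72. In bulk RNA, a few cells with much of a transcript and many cells with little of it cannot be told apart.

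Between lines, all 7 sarcomeric chains were lowest in line 66, Myh2 and Myh6 among them on few counts, and 5 of them, Myh3, Myh8, Myh7, Myh1 and Myh4, were highest in line 72. Among the 6 heavy chains with a mean of at least 10 TPM, 2 were over 2-fold apart between the highest and the lowest line, Myh8 (3.26-fold) and Myh7 (2.82-fold), whereas 2.47% of 8429 genes with such a mean were. Both had line 66 lowest and line 72 highest, a pattern that 0.569% of genes had at over 2-fold, while 0.866% were over 2-fold with line 66 lowest. From a mean of 1 TPM up, 3 of 7 heavy chains were over 2-fold apart, Myh4 being the added one, against 7.19% of genes. Its fold of 2.06 fell below 2 in CPM (1.99), with the scaling of edgeR (1.93) or DESeq2 (1.94) and with a pseudocount of 0.1 (1.92). The fold of Myh4 was 1.96 without line 72 and 1.05 without line 66. Of the 6, 4 were lowest in line 66 at any fold, beside 47.8% of genes, and the same 4 (Myh1, Myh3, Myh7 and Myh8) were highest in line 72, beside 29.4% of genes with both. Each line is 1 library, so these counts carry no test.

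The other sarcomeric folds were 1.66 for Myh3 and 1.81 for Myh1, and, at low levels, 2.06 for Myh4, 2.37 for Myh2 and 19.1 for Myh6, which was 3.04 for Myh6 with full-length transcripts alone. Myh9 and Myh10 were 1.13-fold and 1.28-fold apart, and Myh11, on 7 to 13 counts, 1.91-fold. Over the same 6 chains the median fold was 1.74, against 1.18 for all genes that passed the same minimum. Without line 66, no chain of the 6 was over 2-fold apart. Of the low chains, Myh4 and Myh2 were then 1.05-fold and 1.12-fold apart, and Myh6, on few counts, 5.63-fold.

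The lines also differ in the level of chromosome 11, where 6 of the 10 genes lie. All ratios here are relative to the median of all 8429 genes, which was -0.06, -0.02 and 0.06 in lines 66, 67 and 72 and was subtracted. For its 699 genes averaging 10 TPM or more, the median log2 ratio of line 66 to the average of lines 67 and 72 was 0.33. The same ratio taken for line 67 was -0.20 and for line 72 -0.14, and 92.7% of these genes were above zero in line 66. Myh10 had a ratio of 0.25 in line 66, near this median. The cluster chains went the other way in that line, with ratios of -0.50 for Myh3, -1.41 for Myh8, -0.79 for Myh1 and -0.95 for Myh4. Myh7 on chromosome 14, whose median was within 0.02 of zero in each line, had -1.27. After division of the TPM by the median of the chromosome's genes in each line, here relative to the mean of the 3 lines and with nothing subtracted, the folds between lines were 1.96 for Myh3, 3.84 for Myh8, 2.24 for Myh1 and 2.63 for Myh7, and 1.17 for both Myh10 and Myh9.

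**Figure D5:**
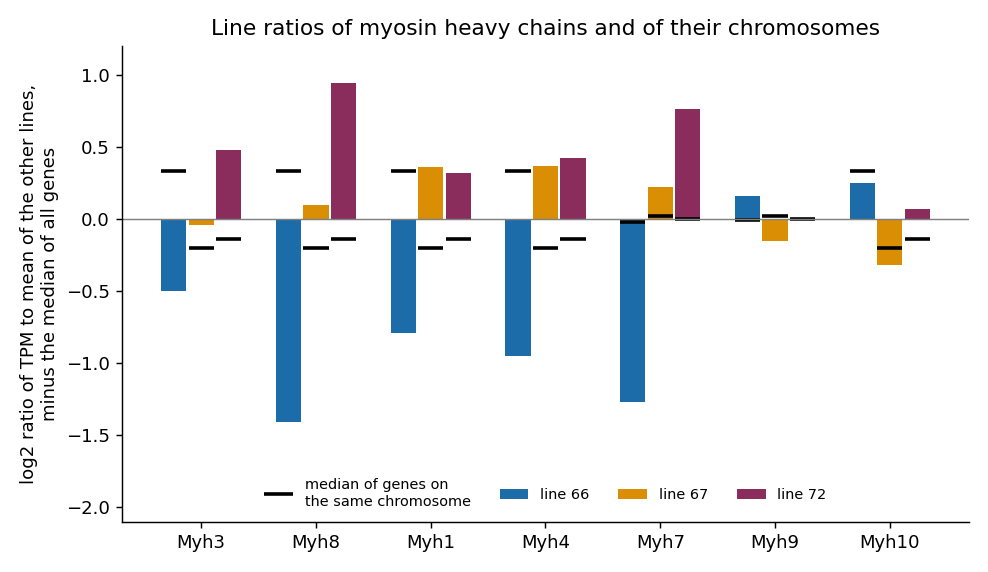
Log2 ratio of each line's TPM to the average of the remaining lines, minus the median of all genes in that line, for 7 heavy chains (bars, 1 for each line), with black marks at the median of the genes on the same chromosome. In line 66 Myh3, Myh8, Myh1 and Myh4 fall below zero (-0.50 to -1.41) while the chromosome 11 median is at 0.33, Myh7 falls below it with a chromosome 14 median near zero, and Myh10 lies at 0.25.

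Markers of differentiation moved between lines with the sarcomeric chains. Of the 10 on the list, 9 had a mean of at least 10 TPM, and all 9 were lowest in line 66, beside 47.8% of all such genes, while 7 were also highest in line 72, beside 29.4%. Myog, the factor that starts terminal differentiation, stood at 168, 222 and 310 TPM, and Mymk, the fusion protein myomaker, at 67.6, 106 and 119 TPM. The list summed to 917, 1432 and 1609 TPM in lines 66, 67 and 72, and no marker of it was at 0. The part of these differences in the levels of the heavy chains was not tested. Of 6 sarcomeric light chains, the 3 with a mean of 10 TPM or more, Myl1, Myl4 and Mylpf, were lowest in line 66 and highest in line 72, beside 29.4% of genes, with Mylpf at 653, 816 and 1008 TPM.

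The label of the cells as myoblasts was set beside its markers. All 8 myoblast markers had a mean of at least 84.4 TPM, among them Pax7 at 136, 143 and 154 TPM, Myod1 at 791, 702 and 579 TPM and Des at 484, 511 and 487 TPM, and none was over 2-fold apart between lines. Since the study sorted satellite cells by the Pax7 reporter or by the surface protein ITGA7, Pax7 and Itga7 are no independent check. Markers of differentiation were present too, 9 of 10 at a mean of at least 10 TPM, as given above. Markers of smooth muscle and pericytes were mixed, as given beside Myh11, with 5 of 11 at a mean of 10 TPM or more. Of 8 fibroblast markers 6 were below 1 TPM in every line, with Lum and Dpt at 0 counts and Col3a1 at 145, 205 and 270 TPM as the exception with a high level, and the 8 endothelial and immune markers had means of at most 3.68 TPM. The summed fibroblast markers, nearly all Col3a1, had line 66 lowest and line 72 highest at 150, 211 and 274 TPM, and their part in the result was not tested. How far the sort left out fibroblasts was not tested either.

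Partners of the thick filament and the chaperones that fold myosin were read from a list of 14 genes. Of these, 7 had a mean of at least 10 TPM, and 5 of the 7 were lowest in line 66 and highest in line 72, beside 29.4% of all such genes. Over 2-fold apart were 2 of the 7, beside 2.47% of genes. Smyd1, a methyltransferase needed for myosin assembly, stood at 38.3, 72.2 and 96.1 TPM, and Mybph, a myosin binding protein, at 47.7, 69.9 and 94.3 TPM. The slow-type myosin binding protein C, Mybpc1, had 7.45, 14.5 and 23.7 TPM, whereas the fast type Mybpc2 had 3 to 4 counts and the cardiac type Mybpc3 at most 1 count. Unc45b, the chaperone of striated muscle myosin, had 6, 9 and 13.4 TPM, and Unc45a, its general counterpart, had 44.2, 41.2 and 39.1 TPM, with line 66 highest. Hsp90aa1, which works with both, was level at 1192, 1131 and 1163 TPM.

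Light chains and regulators of nonmuscle myosin were read from a list of 12 genes, of which 11 had a mean of at least 10 TPM and 1 was over 2-fold apart between lines, beside 2.47% of all such genes. The essential light chain Myl6 had 1388, 1300 and 1265 TPM and the regulatory chain Myl12a had 1198, 1257 and 1193 TPM. Myl9, another regulatory chain, was highest in line 66 at 199 TPM, against 107 and 101 TPM in lines 67 and 72. S100a4, which binds the Myh9 tail and loosens its filaments, was the gene over 2-fold apart, at 553, 1712 and 933 TPM, with line 67 highest. Myh9 was lowest in line 67 but only 1.13-fold apart between lines, and a link was not tested. The kinases Rock1 and Rock2, which raise light chain phosphorylation, had means of 45.9 and 125 TPM, and Mylk, the light chain kinase of smooth muscle, had 1.05 TPM.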

How the data were processed

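Poly-A RNA-seq libraries of 3 lines (66, 67 and 72) of edited Dmdmdx; Pax7-nGFP myoblasts were used, with the line as the replicate. For each transcript the authors deposited estimated counts, not normalized, and TPM values, scaled for effective length to 1000000 per library. The submitters' processing notes name bcl2fastq 2.20, fastp 0.20, kallisto 0.46.1 and GRCm39. The annotation release and strand setting are not given in the sources used here.

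Of 121798 transcripts, 120739 matched GENCODE M21 (GRCm38, source of all coordinates) by identifier, and 1059 (0.471% to 0.511% of counts) were left out. Values of a gene's transcripts were added up, for either unit. Class differences used log2(TPM + 1) and an exact sign-flip test. Lines were compared by the fold between highest and lowest in genes averaging 10 TPM or more, with no pseudocount. The genes named are the 10 members, those of fixed marker and pathway lists and the genes annotated within the cluster. A further 5 were picked by likeness to Myh3 in these data. Members and lists were chosen with earlier results of these data known. Cluster coding sequences were aligned with mafft 7.526, and windows, promoters and miRNAs came from GENCODE and RefSeq tables.

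Alternatives were CPM, a pseudocount of 0.1, TMM scaling of edgeR 4.0.16 and size factors of DESeq2 1.42.0 (on estimated counts rounded to whole numbers), protein-coding transcripts only, a mean of at least 1 TPM, a fold of 1.5, Myh6 and Myh14 added to their classes, and leaving out each line. The line comparison was also run on simulated data as a check of its steps, which is no test of these counts. Python 3.11.15, pandas 2.3.3 and R 4.3.3 were used.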

Additional observations from a re-analysis of the deposited data

How the results depend on the processing

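The 6 differences between classes kept their sign under every alternative run. These were a pseudocount of 0.1, CPM, protein-coding transcripts, full-length transcripts, Myh6 and Myh14 added, and leaving out each line. Leaving out a line or changing the pseudocount could not have changed a sign, since all 3 lines had the same sign for each pair. With 3 lines no p could fall below 0.25, or below 0.5 with 2. Without each line in turn the differences ranged from 0.65 to 1.06 for nonmuscle minus developmental chains on the log2 scale. With full-length transcripts this difference was 0.47. In CPM, which does not correct for length, the summed levels were 964 for developmental, 155 for adult fast, 29.7 for slow and 1859 for nonmuscle chains. With full-length transcripts alone the nonmuscle level was 387 TPM in place of 519 and the slow level 8.03 in place of 14.1, and the slow chain then lay below adult fast chains by a log2 difference of 2.44 in place of 1.81 and below developmental chains by 5.03 in place of 4.32. The count of chains over 2-fold apart between lines was 2 in the report, 4 at a fold of 1.5, 3 after division by chromosome median, 3 at a mean of at least 1 TPM, and 0 to 2 when lines were left out in turn, with 0 when line 66 was left out. The share of all genes over 2-fold apart was 7.19% at a mean of at least 1 TPM, 9.79% at a fold of 1.5, and 1.09% to 1.47% when lines were left out in turn. The full-length setting and the division by chromosome median were chosen after seeing the data. Of 60 alternative values for levels of single chains, 50 stayed within 1 SD of the value reported, and 9 of the other 10 were in CPM. With 3 lines, leaving out 1 cannot move a mean by 1 SD, and CPM is another unit. The protein-coding and full-length settings, which could have moved a value, left 10 and 9 of 10 chains within 1 SD. No paired analysis was possible because there is 1 group and so no second group to pair it with; chains were compared within lines throughout. Depth limits Myh2, Myh6, Myh11 and Myh13, which rest on few counts, and the sharing of sequence limits the adult fast chains and Myh6.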

Other observations

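Regulators of fiber type formed a list of 18 genes, of which 11 had a mean of at least 10 TPM. Mef2c, an activator of muscle structural genes, had 19.9, 39.9 and 48.8 TPM in lines 66, 67 and 72, and was 1 of the 2 regulators of the 11 over 2-fold apart, beside 2.47% of all genes. The other was Vgll2, a cofactor of TEAD factors, at 28.0, 15.6 and 43.9 TPM. Sox6, a repressor of slow genes, had 1.80, 2.17 and 1.92 TPM, and Nfix, a factor of the fetal stage, had 45.9, 63.8 and 49.3 TPM. Nfatc1, which slow activity engages, had 6.23 ± 0.45 TPM, and Prdm1 had 1 to 3 counts. The noncoding gene 2310065F04Rik, next to Myh3, had 4, 5 and 14 counts.

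The 5 genes whose levels over the 3 lines were most like those of Myh3, by Euclidean distance of centred log2(TPM + 1) among 8423 genes, were Znrf2 (0.017), Tmem38a (0.0227), Pdlim5 (0.0257), Hspb2 (0.0265) and Cpne2 (0.0267). Of these, Tmem38a had 18.2, 24.2 and 31.1 TPM and Pdlim5 had 34.7, 45.9 and 59.2 TPM in lines 66, 67 and 72. With only 3 points to a profile, 47 genes lay closer than 0.1, and the likeness is a description with no test.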
